A study of Mus musculus with 6 samples.

Results

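The 10 genes described here are the Notch receptors Notch1, Notch2, Notch3 and Notch4, the ligands Jag1, Jag2 and Dll4, and the target genes Hey1, Hey2 and Heyl. They were taken by symbol, with earlier results of these data known, and all 10 were found once each among the 18810 genes of the table. RNA was sequenced from the atrioventricular canal region, which holds the mitral, tricuspid and aortic valves, of mouse hearts at embryonic day 15.5 on a C57BL/6 background, from 3 Scx-/- and 3 Scx+/+ embryos with 1 library per heart. Scx encodes Scleraxis, a basic helix-loop-helix transcription factor of tendons and valves. The null allele is present in every cell of the Scx-/- embryos, so that the comparison does not separate cells that use Scx from cells that do not. The paper describes the dissected region as carrying little myocardium, and its RNA was taken in bulk.

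Notch receptors are single-pass membrane proteins that are cut when a ligand on a neighbouring cell binds them. The freed intracellular part enters the nucleus, joins the DNA-binding protein Rbpj and a Mastermind-like coactivator, and turns on genes such as the Hey and Hes repressors. In the atrioventricular canal the pathway is known for its part in the transition of endocardial cells to cushion mesenchyme, for the boundary that keeps the canal distinct from chamber myocardium, and for arterial identity. Notch1, Notch4 and Dll4 are typical of endothelium and endocardium, Notch3 of mural cells, and Hey2 of ventricular myocardium as well as vessels.

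Values are RPKM, read counts scaled for exon length and for the depth of the library, so that levels can be compared between genes. Total reads recovered from the table were 46429947 to 68571050 per library. Scx itself was 33.6, 18.6 and 82.9 RPKM in Scx-/- replicates 1 to 3 and 29.5, 58.3 and 26.0 RPKM in Scx+/+ replicates 1 to 3. That is a whole-gene value, with none for exon 1 alone, so that it does not check the genotypes, which are used as labelled. Of 8 valve mesenchyme markers, the highest were Postn (161 to 387 RPKM), Col3a1 (100 to 153 RPKM) and Vcan (21.2 to 44.7 RPKM). The rest were lower, among them Col1a1 (7.34 to 15.8 RPKM), Sox9 (1.26 to 3.36 RPKM), Twist1 (1.46 to 2.62 RPKM) and Msx1 (0.145 to 1.22 RPKM). Endocardial Npr3 (13.6 to 21.5 RPKM) and Nfatc1 (0.637 to 1.21 RPKM) were read in every library. No list of canal markers was set, so the tissue is used as labelled. Cardiomyocyte genes were far higher, with a summed level of 15852 to 27891 RPKM for 8 markers. Scx+/+ replicate 2 stood apart, since its 10 most abundant genes took 56.9% of all RPKM against 30.7% to 43.9% in the other 5 libraries. Counts of the 10 genes called or without overlap are given with and without it. Correlations are given over all 6 libraries alone.

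Across genotypes, Dll4 was the single member whose libraries did not overlap, at 1.13 ± 0.07 RPKM in Scx-/- and 1.85 ± 0.21 RPKM in Scx+/+ (SD, n = 3 each). Its log2 fold change of -0.66 did not pass the test at 6 libraries. Over all genes, 2.31% lay lower and 7.19% higher without overlap. The other 9 genes overlapped between genotypes, and 0 of the 10 passed the limma threshold of an unadjusted p below 0.05. The same test called 731 of all 18810 genes (3.89%), 200 of them (1.06%) lower in Scx-/-, and 0 genes (0%) at an adjusted p below 0.05. In level, Hey2 exceeded every other member in each of the 6 libraries, Jag1 led the ligands and Notch2 led the receptors.

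**Figure D1:**
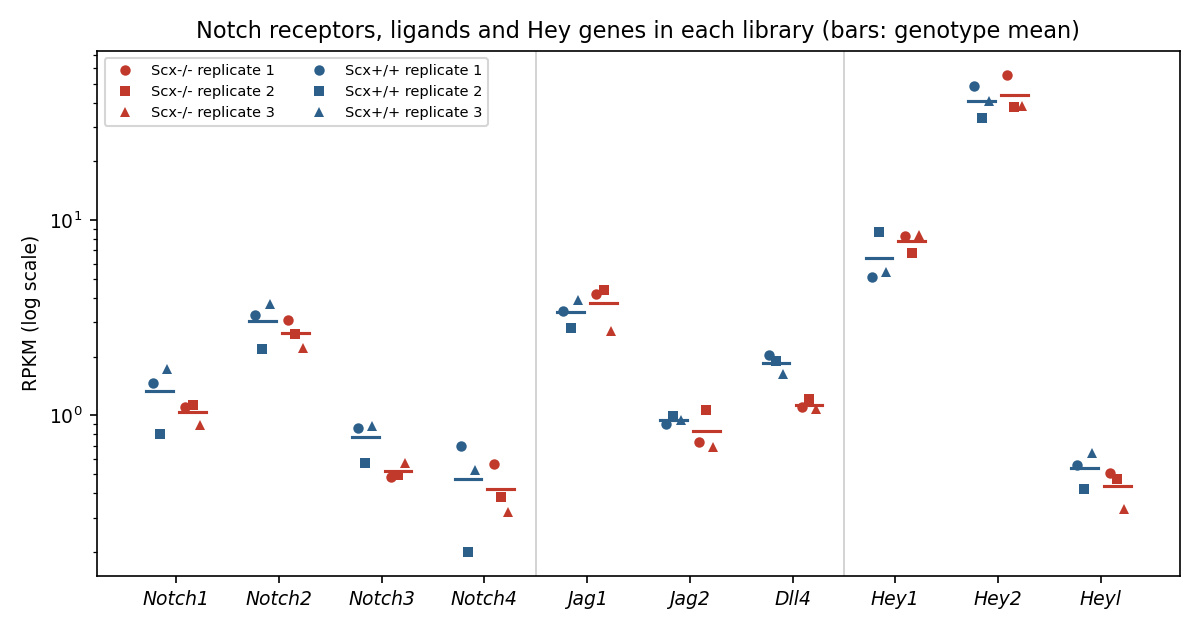
Level of each of the 10 genes in each library, in RPKM on a log scale, with Scx+/+ in blue, Scx-/- in red, a marker shape for each replicate number and a bar at the genotype mean. The Dll4 values of Scx-/- (1.08 to 1.21 RPKM) all lie below those of Scx+/+ (1.62 to 2.03 RPKM), while in the other 9 genes the genotypes overlap.

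By mean log2 level over the 6 libraries the order was Hey2, Hey1, Jag1, Notch2, Dll4, Notch1, Jag2, Notch3, Heyl and Notch4. Hey2 lay above 90.2% of the genes of the table, Jag1 above 50.9% and Notch4 above 13.1%, so that the family spanned most of the expressed range. Ranges did not overlap between Hey2 and Hey1, between Hey1 and Jag1, or between Notch2 and Dll4. Jag1 exceeded Notch2 within each of the 6 libraries, by 0.32 ± 0.25 on the log2 scale (SD over 6 libraries), and Jag2 exceeded Notch3 in all 6 by 0.43 ± 0.36. Dll4 over Notch1 (0.31 ± 0.45, 4 of 6 libraries), Notch1 over Jag2 (0.35 ± 0.40, 5 of 6) and Heyl over Notch4 (0.15 ± 0.38, 4 of 6) differed by less than the spread of their difference. Notch3 over Heyl stood at 0.33 ± 0.27 and held in 5 of 6 libraries.

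Promoters are shown for the ligand whose genotypes did not overlap, for the most abundant ligand and for the most abundant target, since these carry the description of levels and differences. Each runs from 250 bases before the transcription start to 10 bases after it, 5′ to 3′ on the strand of the gene, in RefSeq sequence of build GRCm38.p6. The capitals mark matches on either strand to TGGGAA, the core of the Rbpj site, or to CANNTG, the E-box bound by basic helix-loop-helix proteins. The 2 motifs share no bases in these promoters. Dll4 is chr2:119325534-119325793 on the plus strand, Jag1 is chr2:137116511-137116770 on the minus strand, and Hey2 is chr10:30842774-30843033 on the minus strand.
Dll4: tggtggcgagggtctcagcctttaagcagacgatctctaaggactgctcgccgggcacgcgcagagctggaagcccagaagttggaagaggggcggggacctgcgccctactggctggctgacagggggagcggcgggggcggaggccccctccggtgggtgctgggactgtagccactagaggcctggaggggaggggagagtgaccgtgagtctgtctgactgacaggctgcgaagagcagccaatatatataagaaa
Jag1: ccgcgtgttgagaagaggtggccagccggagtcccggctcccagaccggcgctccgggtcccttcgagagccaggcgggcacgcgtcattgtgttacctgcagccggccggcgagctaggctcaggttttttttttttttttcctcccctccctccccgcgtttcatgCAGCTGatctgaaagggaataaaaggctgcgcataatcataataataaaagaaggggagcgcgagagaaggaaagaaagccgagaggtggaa
Hey2: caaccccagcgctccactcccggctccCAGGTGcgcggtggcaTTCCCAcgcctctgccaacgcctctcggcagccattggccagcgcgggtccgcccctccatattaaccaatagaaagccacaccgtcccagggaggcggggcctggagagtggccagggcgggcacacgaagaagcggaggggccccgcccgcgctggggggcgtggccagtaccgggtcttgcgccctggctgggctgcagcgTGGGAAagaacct

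Of the 10 genes, 8 were matched in the promoter table, and Hey1 and Heyl were not. Hey2 held 2 matches to TGGGAA, one as TTCCCA starting 207 bases before the start and one as TGGGAA 3 bases before it. It also held the E-box CAGGTG, 223 bases before the start. Among all 32851 promoters of the same 300 bases searched, 25.6% held TGGGAA at least once and 3.79% held 2 or more, and 72.3% held CANNTG. Jag1 held the E-box CAGCTG 82 bases before the start, and Notch4 held CATTTG 158 bases before it. Neither motif was in the windows of the other 5 matched genes, Dll4 among them, which says only that these letters are absent there.

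Notch1, the main Notch receptor of endocardium, spans chromosome 2 (mm9, as for all genes below) from 26313423 to 26372183 on the minus strand. It was 1.11, 1.13 and 0.893 RPKM in Scx-/- replicates 1 to 3 and 1.47, 0.802 and 1.74 RPKM in Scx+/+ replicates 1 to 3. Scx+/+ replicate 2 was the lowest of the 6 libraries and the other Scx+/+ libraries were the highest, so that the genotypes overlapped. The log2 fold change was -0.27 (standard error, SE, 0.38, adjusted p = 0.967 from limma). Opposite-strand noncoding genes overlap 1488 (0610009E02Rik) and 414 (Gm13568) bases of its gene span, introns included, at up to 1.90 and 7.49 RPKM. The overlap of exons was not taken. Where exons do overlap, reads cannot be told apart if strand was not used in counting.

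Notch2, the receptor of highest level, lies on chromosome 3 from 97817461 to 97954290 on the plus strand. Its levels were 3.08, 2.61 and 2.22 RPKM in the Scx-/- libraries and 3.26, 2.19 and 3.72 RPKM in the Scx+/+ libraries. As for Notch1, Scx+/+ replicate 2 was lowest and Scx+/+ replicate 3 highest. The genotypes overlapped, and the log2 fold change stood at -0.18 (SE 0.29, adjusted p = 0.972 from limma).

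Notch3, the receptor typical of smooth muscle and pericytes, lies on chromosome 17 from 32257765 to 32303825 on the minus strand. It stood at 0.482, 0.497 and 0.574 RPKM in Scx-/- and 0.866, 0.570 and 0.883 RPKM in Scx+/+. One Scx+/+ library, replicate 2, fell inside the Scx-/- range, just under its highest value, and the remaining pair lay above it. At -0.48 its log2 fold change was the most negative of the receptors and was not called (SE 0.40, adjusted p = 0.967 from limma).

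Notch4, a receptor largely confined to endothelium, lies on chromosome 17 from 34701213 to 34725448 on the plus strand and was the lowest member. Its values were 0.564, 0.383 and 0.320 RPKM in Scx-/- and 0.696, 0.200 and 0.528 RPKM in Scx+/+, from 75 to 337 reads. The Scx+/+ libraries held both the lowest and the highest value. Its log2 fold change of -0.05 (SE 0.54, adjusted p = 0.996 from limma) had the widest error of the 10 genes, and it changed sign when Scx-/- replicate 3, Scx+/+ replicate 1 or Scx+/+ replicate 3 was left out. The pseudogene Gm20462 overlaps 408 bases of its gene span, introns included, on the opposite strand.

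Summed over the 4 receptors, the level was 5.24, 4.62 and 4.01 RPKM in Scx-/- and 6.29, 3.76 and 6.87 RPKM in Scx+/+. Scx+/+ replicate 2 and Scx-/- replicate 3 were the lowest 2 libraries, and these held the highest summed levels of the cardiomyocyte markers, 27891 and 25642 RPKM against 15852 to 21381 RPKM in the other 4. The part of cardiomyocyte content in the receptor levels was not tested, and in bulk tissue fewer cells of a type and less RNA per cell cannot be told apart. Of the receptor sum, Notch2 took 51.9% to 58.8% and Notch1 21.2% to 25.3%, while the lower Notch3 (9.21% to 15.2%) and Notch4 (5.33% to 11.1%) varied more for their size.

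Without Scx+/+ replicate 2, 5 members (Notch1, Notch2, Notch3, Dll4 and Heyl) had every Scx-/- library below both remaining Scx+/+ libraries, and 1 (Hey1) had every Scx-/- library above them. Over all genes that arrangement was met by 9.81% lower and 17.7% higher with this library left out. With all 6 libraries it was met by 2.31% lower and 7.19% higher, and by 1 member lower and 0 higher. Log2 fold changes without Scx+/+ replicate 2 were -0.58 for Notch1 (adjusted p = 0.615 from limma), -0.40 for Notch2 (0.632) and -0.66 for Notch3 (0.618). None of these receptors was called there at an unadjusted p below 0.05, and Hey1 was the 1 member called, beside 8.23% of all genes.

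Jag1, the ligand of endocardium and of cushion mesenchyme and smooth muscle, lies on chromosome 2 from 136907192 to 136942380 on the minus strand. It was 4.18, 4.37 and 2.71 RPKM in Scx-/- and 3.44, 2.81 and 3.88 RPKM in Scx+/+. Scx-/- held the highest pair and also the lowest library, replicate 3. The difference was 0.13 on the log2 scale (SE 0.27, adjusted p = 0.980 from limma), so a rise or fall within -0.48 to 0.74 (95% interval) was not resolved.

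Jag2, a second Serrate-type ligand, lies on chromosome 12 from 114146801 to 114167706 on the minus strand. Levels were 0.731, 1.06 and 0.694 RPKM in Scx-/- and 0.908, 0.993 and 0.950 RPKM in Scx+/+. Scx+/+ libraries sat close together (SD 0.04 RPKM) and between the Scx-/- values. Its log2 fold change was -0.20 (SE 0.36, adjusted p = 0.979 from limma).

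Dll4, the Delta-type ligand of arterial endothelium and of the endocardium, lies on chromosome 2 from 119151520 to 119161698 on the plus strand and has 11 exons of 3852 bases in all. It measured 1.11, 1.21 and 1.08 RPKM across the null libraries (223, 313 and 249 reads) and 2.03, 1.90 and 1.62 RPKM across the wild-type ones (470, 340 and 429 reads). All 3 null libraries lay under the lowest Scx+/+ one, and Scx+/+ replicate 2, the lowest library for 3 of the 4 receptors, was not low here. Dll4 was 1.58-fold lower in Scx-/- (log2 fold change -0.66, SE 0.29, 95% interval -1.32 to 0.0032).

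For this difference the unadjusted p was 0.0509 and the adjusted p = 0.967 from limma, and the exact permutation test (two-sided) gave p = 0.1, the smallest that 3 against 3 libraries allow. Non-overlap in this direction was met by 2.31% of all genes. The call depended on the processing: Dll4 was called at an unadjusted p below 0.05 in 8 of 16 alternatives. Log2 fold changes were -0.77 to -0.42 over all 16. Among the single libraries, Dll4 was called with Scx-/- replicate 2 or Scx+/+ replicate 3 left out. Its unadjusted p from limma was lowest without a trend, at 0.0132 (adjusted p = 0.951). It was highest with the replicate number as a block, at 0.0934 (adjusted p = 0.9998). The one-way test on log2 RPKM, the kind of test the authors used, gave the lowest p of all 16. There the log2 fold change was -0.70, with an unadjusted p = 0.0029 and an adjusted p = 0.949 from that test. With libraries centred on a median log2 ratio of 0, Dll4 was the 1 member called, beside 3.43% of all genes. The noncoding gene Gm14207 on the opposite strand overlaps 411 bases of the Dll4 gene span, introns included, and reached 0.453 RPKM at most.

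Within the ligands, Dll4 made up 18.4%, 18.2% and 24.1% of the summed RPKM in Scx-/- and 31.8%, 33.3% and 25.1% in Scx+/+. Jag1 made up 69.4%, 65.8% and 60.5% in Scx-/- and 53.9%, 49.3% and 60.1% in Scx+/+. Neither share overlapped between genotypes, although Scx-/- replicate 3 and Scx+/+ replicate 3 came within about a percentage point of each other. These shares were set out after the values had been seen, carry no test, and are not independent, since the shares of the 3 ligands add to the whole. The summed level of the ligands overlapped, at 4.49 to 6.65 RPKM in Scx-/- and 5.71 to 6.46 RPKM in Scx+/+.

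**Figure D2:**
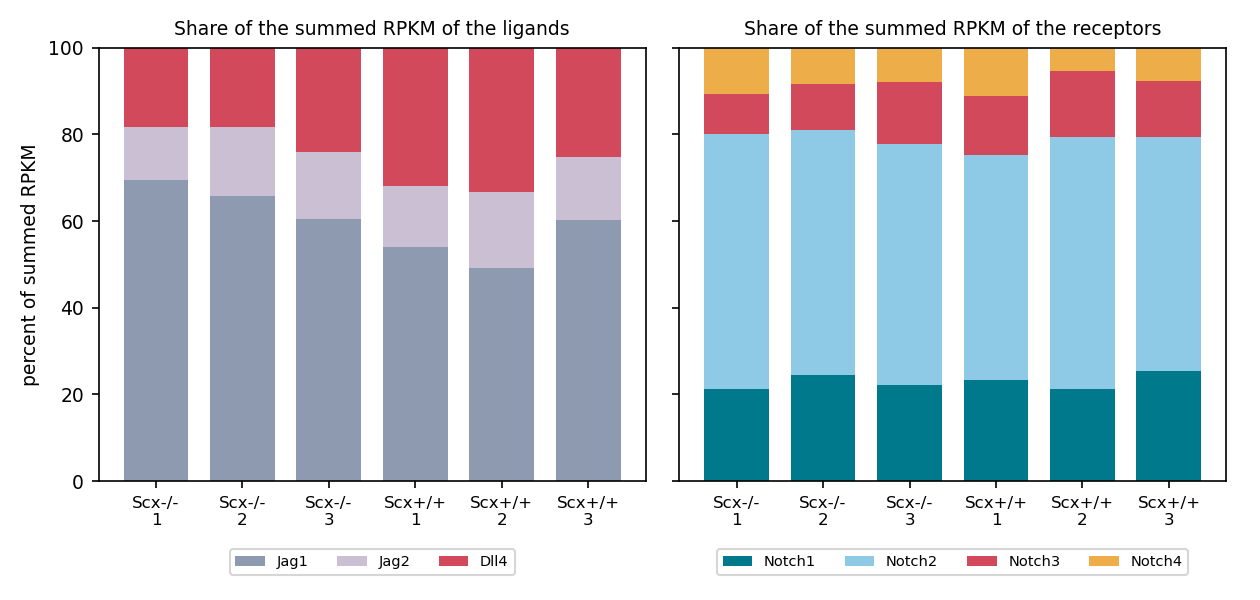
Share of the summed RPKM of the 3 ligands (left) and of the 4 receptors (right) taken by each gene, in percent, 1 bar per library. Dll4 takes 18.2% to 24.1% of the ligands in Scx-/- and 25.1% to 33.3% in Scx+/+, while Notch2 takes most of the receptors in every library.

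Hey1, a bHLH-Orange repressor of the Hey family, lies on chromosome 3 from 8663362 to 8667039 on the minus strand. It was 8.34, 6.83 and 8.37 RPKM in Scx-/- and 5.13, 8.67 and 5.42 RPKM in Scx+/+. Scx+/+ replicate 2 was the highest of all libraries, and the other Scx+/+ libraries were the lowest. The log2 fold change of 0.32 (SE 0.25, adjusted p = 0.967 from limma) was the largest positive one of the 10 genes. It became 0.56 without Scx+/+ replicate 2 (unadjusted p = 0.0209, adjusted p = 0.598 from limma), 0.51 without both Scx-/- replicate 3 and Scx+/+ replicate 2, and ranged from 0.19 to 0.56 over the 16 alternatives.

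Hey2, the family member of compact ventricular myocardium, lies on chromosome 10 from 30552165 to 30562607 on the minus strand. Its levels were 55.7, 37.9 and 38.4 RPKM in Scx-/- and 48.7, 33.4 and 40.6 RPKM in Scx+/+, from 3954 to 7451 reads. Replicate 1 was the highest library in both genotypes, a number that was not taken to pair them. The genotypes overlapped widely, at a log2 fold change of 0.10 (SE 0.21, adjusted p = 0.980 from limma), close to the median of all genes (0.105), and its sign turned in 4 of 16 alternatives.

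Heyl, the family member of smooth muscle and other mural cells, lies on chromosome 4 from 122910799 to 122927118 on the plus strand. Values were 0.505, 0.473 and 0.331 RPKM in Scx-/- and 0.560, 0.421 and 0.639 RPKM in Scx+/+, with Scx+/+ replicate 2 inside the Scx-/- range. The log2 fold change was -0.26 (SE 0.44, adjusted p = 0.976 from limma). Hey2 took 78.6% to 89.5% of the summed RPKM of the 3 Hey genes and Heyl 0.701% to 1.37%, so the sum of targets follows Hey2.

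As a group, 7 of the 10 log2 fold changes were negative, with a median of -0.19, against 36.2% negative and a median of 0.105 over all genes. All 10 lay between -0.66 and 0.32. Setting the median log2 ratio of each library to 0 moved the median of all genes to -0.00 and that of the 10 genes to -0.30, with 8 negative. It also moved the share of higher genes among all those called from 72.6% to 43.5%, and quantile normalization moved it to 49.9%. Removing trends on exon length and GC content brought the 10 genes to a median of -0.01 and 6 negative, with the all-gene median at 0.0978, and brought Notch1 to -0.01 and Notch2 to -0.0026, while Dll4 stayed lower and was called.

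**Figure D3:**
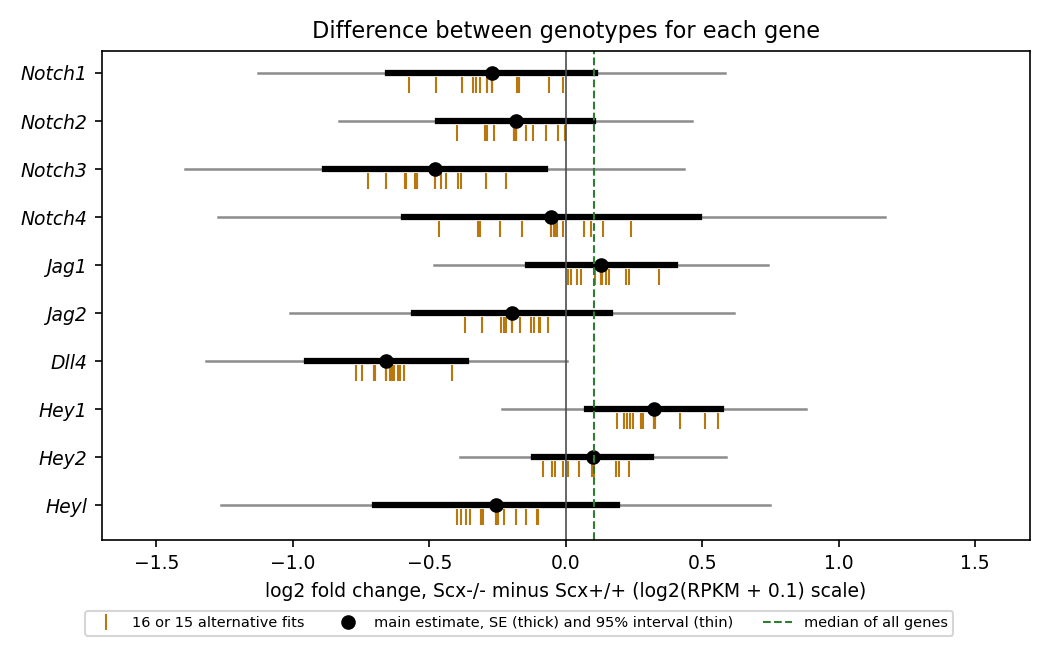
Log2 fold change of each of the 10 genes, Scx-/- minus Scx+/+, with its standard error and 95% interval from limma, and the estimates of the alternative fits as ticks below each line. The dashed line is the median of all genes, 0.105, and every 95% interval includes 0, with that of Dll4 (-1.32 to 0.0032) nearest to leaving it.

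Over the 6 libraries, the members most alike in log2 level were Notch1 and Notch2 (Pearson r = 0.95), Notch2 and Heyl (r = 0.93) and Notch1 and Heyl (r = 0.89). Hey1 ran opposite to Notch1 (r = -0.91) and to Notch3 (r = -0.85). Dll4 was less like any receptor, at r = 0.69 with Notch3 and r = 0.24 with Notch2. Each r describes 6 points that share library, depth and tissue make-up, and Scx+/+ replicate 2 holds the lowest value of 4 members (Notch1, Notch2, Notch4 and Hey2) and the highest of Hey1.

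Among 13767 named genes whose mean reached 1 RPKM, those most like each member above that level were Vps13c (r = 0.999) and Lrba (0.992) for Notch1, and Hcfc1 (0.998) and Rere (0.996) for Notch2. For Jag1 they were Slc39a6 (0.991) and Upk3b (0.989), and for Dll4 Ankrd61 (0.990) and Oplah (0.986). Hey1 was most like Psma2 (0.994) and Dcaf11 (0.990), and Hey2 was most like 2610021K21Rik (0.995) and Irak1 (0.993). With 6 libraries and this many genes, such values are a description of shared profiles alone.

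Since Notch1, Notch4 and Dll4 are known as genes of endothelium, endothelial markers were set beside them, and the source of their reads was not tested. All 14 markers of endothelium and endocardium were listed, 0 were called, 8 log2 fold changes were negative, and their median was -0.12. Their summed level was 161 to 195 RPKM in Scx-/- and 163 to 189 RPKM in Scx+/+. Among them Pecam1 stood at 0.02, Tie1 at -0.14, Kdr at -0.33 and Cdh5 at -0.40 on the log2 fold change scale. The list was mixed, from -0.42 for Nfatc1 to 0.30 for Emcn, with 6 positive, among them Egfl7 (0.24) and Tek (0.20). All 14 overlapped between genotypes. Of 6 arterial markers, Efnb2, the ligand of arterial endothelium that is itself known as a Notch target, was called lower.

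Efnb2 was 6.58, 5.41 and 5.53 RPKM in Scx-/- and 7.72, 8.09 and 8.45 RPKM in Scx+/+, with the null libraries all under the Scx+/+ range. Its log2 fold change was -0.47 (unadjusted p = 0.0342, adjusted p = 0.967 from limma), called in 11 of 16 alternatives. It was not called with Scx-/- replicate 2, Scx-/- replicate 3 or Scx+/+ replicate 3 left out. Nor was it with both Scx-/- replicate 3 and Scx+/+ replicate 2 left out, or with the replicate number as a block. The other arterial markers, Gja4, Gja5, Unc5b, Sox17 and Cxcr4, had log2 fold changes of -0.19 to 0.45 and overlapped. The arterial list summed to 22.8 to 38.5 RPKM in Scx-/- and 23.6 to 33.2 RPKM in Scx+/+.

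Taken relative to the mean log2 level of the 14 endothelial markers of the same library, Dll4 was -2.90, -2.52 and -2.62 in Scx-/- and -2.06, -2.07 and -2.19 in Scx+/+. Again no Scx-/- library reached the Scx+/+ range, as for 1.53% of all genes on this scale, while 13.3% lay higher without overlap. The difference was -0.57 (exact permutation test, two-sided, p = 0.1, the smallest possible), and against Pecam1, Cdh5, Tie1 and Kdr alone it was -0.45. The other 9 genes overlapped on this scale, from -0.40 for Notch3 to 0.41 for Hey1. Without Scx+/+ replicate 2, 6 of the 10 genes did not overlap on it, Dll4 and the 4 receptors lower and Hey1 higher, where 7.17% of all genes lay lower and 26.3% higher.

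Markers of the other cell types moved as follows, and their part in the levels above was not tested. Smooth muscle (6 of 6 markers listed, 0 called) summed to 478 to 672 RPKM in Scx-/- and 447 to 541 RPKM in Scx+/+, and pericytes (5 of 5, 0 called) to 55.8 to 71.2 and 53.4 to 78.7 RPKM. Valve mesenchyme (8 of 8, 0 called) summed to 384 to 526 and 357 to 423 RPKM, and cardiomyocytes (8 of 8, 0 called) to 17916 to 25642 and 15852 to 27891 RPKM. Epicardium (5 of 5) summed to 16.1 to 22.5 and 13.04 to 16.94 RPKM, with Upk1b called higher (unadjusted p = 0.0378, adjusted p = 0.967 from limma). Upk1b was called in 11 of 16 alternatives, and not with the median log2 ratio set to 0. It was also not called with Scx-/- replicate 1, Scx-/- replicate 2, Scx+/+ replicate 1 or Scx+/+ replicate 3 left out. Erythroid genes (5 of 5, 0 called) summed to 4722 to 7014 and 3865 to 6942 RPKM. Macrophage genes (5 of 5) summed to 6.53 to 9.31 and 6.02 to 8.45 RPKM, with Cd68 called higher. Acta2, Pdgfrb, Wt1 and Csf1r, which define 4 of these types, were above the common value given to low genes in every library, while Lmod1, Cd68 and Fcgr1 were at it in 1 library each.

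Of 69 further genes of the pathway, 59 were listed in the table. Their log2 fold changes had a median of 0.01 (29 negative, 30 positive), close to 0 where the 10 receptors, ligands and Hey genes had -0.19, and 1 was called, against the 3.89% called of all genes. That gene was Snai2, the zinc-finger repressor Slug, which Notch activates during endocardial transition. It was 1.78, 1.64 and 0.865 RPKM in Scx-/- and 2.99, 2.004 and 2.46 RPKM in Scx+/+, and did not overlap. Its log2 fold change was -0.80 (SE 0.35, unadjusted p = 0.0475, adjusted p = 0.967 from limma). It was called in 8 of 16 alternatives (-0.98 to -0.50). It was not called with Scx-/- replicate 2, Scx-/- replicate 3, Scx+/+ replicate 1 or Scx+/+ replicate 3 left out. Nor was it called with both Scx-/- replicate 3 and Scx+/+ replicate 2 left out, or with the replicate number as a block. A minimum mean of 1 RPKM and the one-way test on log2 RPKM, the kind of test the authors used, did not call it either.

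The 4 other ligands and ligand-like genes were Dll1 (log2 fold change 0.06), Dlk1 (-0.44), Mfap2 (0.48) and Mfap5 (0.48), and all overlapped. Dll1, the Delta ligand of early embryos, was 0.260 to 1.46 RPKM in the Scx+/+ libraries, a range that took in every Scx-/- value. The glycosylation genes, whose products modify the receptors and their choice of ligand, numbered 5 and overlapped, from -0.21 for Lfng to 0.71 for Rfng. The 10 cleavage genes of the furin, ADAM and gamma-secretase steps overlapped too, with 7 negative and values from -0.77 for Furin to 0.28 for Adam17. Without Scx+/+ replicate 2, Furin (-1.10, unadjusted p = 0.0433) and Adam10 (-0.44, unadjusted p = 0.0199) were called lower, both at an adjusted p = 0.598 from limma. In that setting 6 of the 59 other pathway genes were called, beside 8.23% of all genes.

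Rbpj, the DNA-binding partner of the cleaved receptor, was 6.76, 5.11 and 5.23 RPKM in Scx-/- and 6.30, 4.97 and 6.74 RPKM in Scx+/+. The genotypes overlapped throughout, at a log2 fold change of -0.08 (SE 0.22, adjusted p = 0.987 from limma). Maml1, its Mastermind-like coactivator, did not overlap, at 0.719, 0.702 and 0.558 RPKM in Scx-/- and 0.936, 0.861 and 1.31 RPKM in Scx+/+. Its log2 fold change of -0.57 was not called (SE 0.37, unadjusted p = 0.162). Snw1, a nuclear cofactor, was higher without overlap (log2 fold change 0.34, unadjusted p = 0.0626, adjusted p = 0.967 from limma). The acetyltransferase genes Ep300 (-0.73) and Crebbp (-0.52) overlapped and were not called. Without Scx+/+ replicate 2, where 8.23% of all genes were called, both were called lower. Ep300 stood at -0.98 (unadjusted p = 0.0231) and Crebbp at -0.80 (unadjusted p = 0.0456), each at an adjusted p = 0.598 from limma. Ep300 was also called with quantile normalization (3.75% of all genes called) and with the median log2 ratio set to 0 (3.43%).

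Of 12 corepressor genes, which keep Notch targets off, 0 were called. Spen, an Rbpj corepressor, had a log2 fold change of -0.41 and did not overlap, while Cir1 (0.34) and Hdac2 (0.22) did not overlap in the other direction.

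Among 11 endocytosis and turnover genes, which govern how ligands and receptors are taken up and degraded, Neurl1b (-0.40) and Dtx3l (-0.16) were lower without overlap, and 8 of the 11 were positive. Mib1, the ubiquitin ligase that acts on Notch ligands, had a log2 fold change of 0.01 at 16.1 to 23.5 RPKM. Of 8 Hes and other target genes, Hes1, the classical target, was 13.3, 8.27 and 8.85 RPKM in Scx-/- and 10.3, 13.7 and 6.57 RPKM in Scx+/+, and its log2 fold change was 0.02. Nrarp, a feedback inhibitor of the pathway, did not overlap and lay higher in Scx-/- (0.33, unadjusted p = 0.158), opposite in sign to Snai2. In all, 6 of the 59 genes lay lower and 4 higher without overlap, where 2.31% and 7.19% of all genes did.

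**Figure D4:**
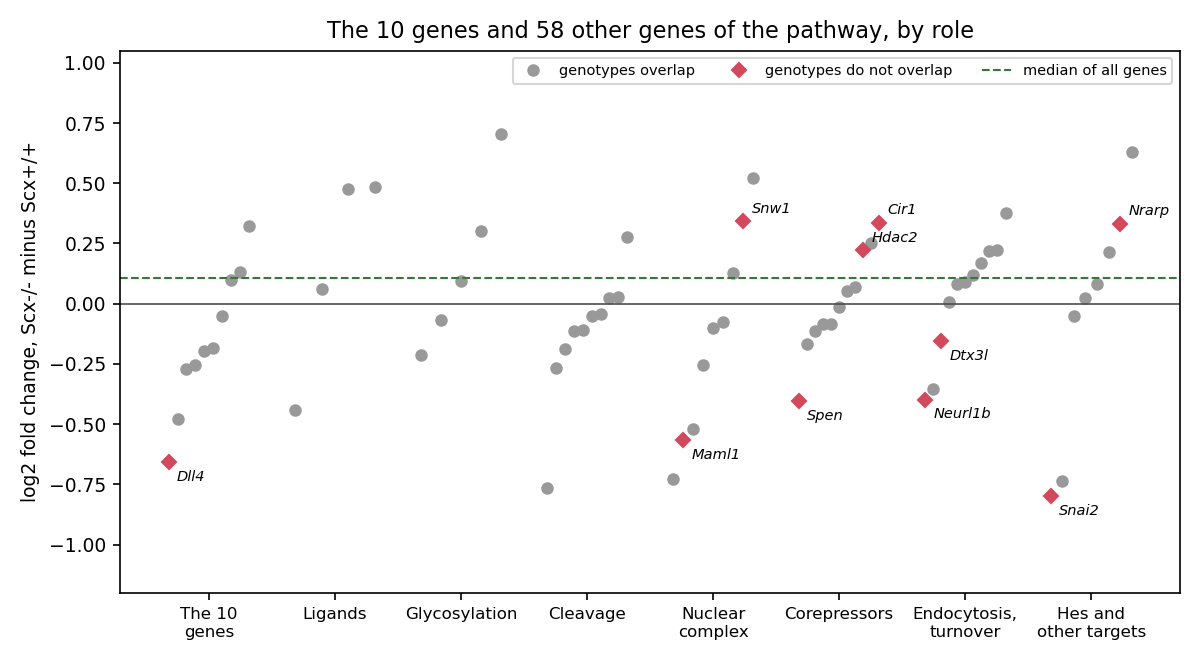
Log2 fold change, Scx-/- minus Scx+/+, of the 10 genes and of 58 other genes of the pathway in columns by role, 1 point per gene, with red diamonds where the genotypes do not overlap. Dll4 is the 1 diamond among the 10 genes, and of the others 5 diamonds lie below 0, with Snai2 the lowest at -0.80, and 4 above it.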

How the data were processed

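RNA of 3 Scx-/- and 3 Scx+/+ hearts was sequenced. The authors aligned reads to mm9 with TopHat 1.4.1 (per the submitters' processing notes), counted reads per Ensembl gene, and deposited RPKM values, which are scaled for exon length and depth. By their methods genes of low counts were left out and low values were replaced by 1 common value, 0.0949 RPKM in the table (8395 values, 0 of them in the 10 genes). Whether strand was used in counting is not given in the sources used here.

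Symbols, exon lengths and mm9 coordinates came from the GENCODE annotation of that build (18695 of 18810 genes). Depth was solved for from RPKM and exon length, and 98.5% to 98.6% of values below 1000 reads then came out whole to within 0.1 read. Log2(RPKM + 0.1) was tested in limma 3.58.1 (R 4.3.3) over all 18810 genes and 6 libraries, with an intensity trend and Benjamini-Hochberg adjustment. Fold changes on that scale understate the change of low genes. The threshold for a call was an unadjusted p below 0.05, since the authors' tests were unadjusted. Likeness was Pearson's r. The code was tested on simulated data. Alternatives were pseudocounts of 0.01 and 1, a minimum mean of 1 RPKM, no trend, one-way ANOVA, quantile and median scaling, removal of exon length and GC trends (splines of 5 degrees of freedom), the replicate number as a block, each library left out, and, chosen after seeing the data, Scx-/- replicate 3 and Scx+/+ replicate 2 both left out.

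The 10 genes, the pathway and marker lists and the motifs were chosen with earlier results of these data known. Named are the 10 genes, any pathway gene called or without overlap, Dll1, Rbpj, Hes1 and Maml1, called and defining markers, and the 2 most alike genes of each member of at least 1 RPKM. Other genes of the lists named with their values were picked after these were seen. The values of 1 gene of the pathway list, included in the counts over that list, are not reported here.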

Additional observations from a re-analysis of the deposited data

How the results depend on the processing

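Of the 10 genes, 0 passed the limma threshold of an unadjusted p below 0.05. It was 1, Dll4, with a pseudocount of 1, without a trend, by one-way ANOVA, with quantile normalization, with the median log2 ratio set to 0 and with exon length and GC trends removed. In these settings 3.43% (without a trend) to 4.58% (ANOVA) of all genes were called, and with a minimum mean of 1 RPKM 4.11% of those kept. Leaving out single libraries gave 0 to 1 (Dll4 without Scx-/- replicate 2 or Scx+/+ replicate 3, Hey1 without Scx+/+ replicate 2), and leaving out both Scx-/- replicate 3 and Scx+/+ replicate 2 gave 1, Hey1. At an adjusted p below 0.05, 0 of all genes passed in limma and 1 by ANOVA. Of the 59 other pathway genes, 1 was called, against 0 with a minimum mean of 1 RPKM, 2 without a trend, 4 by ANOVA, 3 with quantile normalization, 3 with the median log2 ratio set to 0, 1 to 6 with single libraries left out and 6 with both left out. Over all genes, 731 (3.89%) were called, and 1587 (8.44%) with both left out. With single libraries left out it was 539 (2.87%, without Scx+/+ replicate 3) to 1549 (8.23%, without Scx+/+ replicate 2).

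Signs turned in 2 of the 10 genes. Notch4 was 0.13 with exon length and GC trends removed, and -0.46 to 0.24 with single libraries left out. Hey2 was -0.0499 with quantile normalization, -0.0102 with the median log2 ratio set to 0, and -0.0822 to 0.23 with single libraries left out. The other 8 kept their direction in each alternative that could be run. Relative to the endothelial markers, 1 gene did not overlap (14.8% of all genes in either direction), 2 (Dll4 and Hey2) against Pecam1, Cdh5, Tie1 and Kdr alone (20.7%), and 1 to 6 with single libraries left out (20.3% to 33.4%). The causes of these changes were not tested.

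Same-numbered libraries did not deviate together (r = 0.09, -0.22 and -0.19 for the 3 numbers), and the replicate numbers were not used as pairs. Deviations from a mean of 3 libraries cannot settle whether libraries were paired. The paper describes the embryos as littermates, and which hearts shared a litter is not given. With the replicate number as a block, 0 of the 10 genes, 1 other pathway gene (Bmp10) and 573 of all genes were called. With 3 libraries a genotype, exact permutation cannot go below p = 0.1, and Notch4 rested on as few as 75 reads. Each p rests on these 6 hearts alone. In limma the variance of each gene is also drawn toward a trend fitted over all genes, so its p and SE are not that gene's own spread alone.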
